A study of Mus musculus with 8 samples.

Results

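The enamel matrix and amelogenesis imperfecta genes are 9 genes whose human counterparts are mutated in inherited defects of enamel, chosen by name: 4 matrix genes (Amelx, Ambn, Enam and Klk4) and 5 transport and signalling genes (Fam83h, Wdr72, Slc24a4, Fam20a and Relt). Each was found by its symbol among the 43629 Ensembl genes counted in every sample, and all 9 had enough counts to be tested. The study asked how transcription in the mouse molar changes when the Notch ligand Jagged1 is deleted from the epithelium. RNA was sequenced from the lower first molars of 8 embryos at E18.5, with left and right molars of an embryo pooled. The mutant group held 4 K14:cre; Jagged1 fl/fl embryos, in which Cre recombinase is driven by the keratin 14 promoter, so that the floxed alleles are removed in epithelium and not in the dental mesenchyme. The control group held 4 littermates, Jagged1 fl/fl by the labels, which would carry the same floxed alleles without the Cre transgene, while the paper calls them WT. The embryos are named here as in the labels, J3, J5, J6 and J7 for the controls and K14J26, K14J28, K14J29 and K14J30 for the mutants.

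Enamel is laid down by ameloblasts, epithelial cells that first secrete a protein matrix and later remove it while mineral fills the space. Amelogenin, ameloblastin and enamelin, the products of Amelx, Ambn and Enam, form the secreted matrix, and the proteases encoded by Mmp20 and Klk4 degrade it in the secretory and the maturation stage, respectively. The other 5 genes act inside the cell or at its membrane, in ion transport, vesicle traffic, phosphorylation of secreted proteins and signalling, and most of them are also used outside teeth.

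The total count per control embryo lay between 17327224 and 28613574 and that per mutant embryo between 24692128 and 29792467. Values are given as CPM, counts scaled to the library size, and 3 counts corresponded to between 0.0998 and 0.166 CPM, a floor that covers counting error only. Jag1 checked the labels: it stood at 95.2 CPM in J3, 103 in J5, 104 in J6 and 99.9 in J7, and at 34 CPM in K14J26, 39 in K14J28, 46 in K14J29 and 57.1 in K14J30. All 4 mutants lay below all 4 controls, and the log2 fold change, mutant over control, was -1.19 (standard error, SE, 0.14), with an adjusted p of 0.00517 by the quasi-likelihood test of edgeR. The embryos also differed in ways the labels do not name. Xist, the transcript of the inactive X chromosome, was abundant in the mutants K14J28 (1930 CPM) and K14J29 (1468 CPM) and did not exceed 1.09 CPM elsewhere. The Y-linked Ddx3y was at 0.0665 and 0.0347 CPM in these mutants and at 106 CPM or more in the others, and Kdm5d, Eif2s3y and Uty were likewise at 0.0998 CPM or less in both. Because Amelx lies on the X chromosome, the tests were repeated with the Xist level as a covariate and, as an alternative chosen after seeing the data, without both mutants.

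Across all 17129 genes tested, 1631 (9.52%) were higher and 1133 (6.61%) were lower in the mutants at an adjusted p under 0.05. The higher genes made up 59% of these calls, 48.5% with upper quartile scaling and 44.6% with scaling to the library size only. Of the 9 enamel genes, 5 were higher in the mutants (Amelx, Ambn, Enam, Fam20a and Relt) and 0 were lower by edgeR's quasi-likelihood test. DESeq2 also called 0 lower, and 0 had an unadjusted p under 0.05 in that direction. The robust form of the quasi-likelihood test called 1 higher, Enam. It gave Amelx, Ambn, Fam20a and Relt adjusted p from 0.0564 to 0.0654. The study asked for a p of at most 0.05 and a fold change of at least 0.5. These were read here as an unadjusted p and a log2 fold change. By this reading 7 of the 9 were higher (Amelx, Ambn, Enam, Klk4, Fam20a, Relt and Slc24a4), against 8.33% of all genes. Of these, Slc24a4 entered the test only through the mutants and is not counted as a call here. Every mutant lay above every control for 5 of the 9 (Amelx, Ambn, Enam, Wdr72 and Relt), against 12.6% of all genes. The median log2 fold change was 4.74 over the 4 matrix genes and 1.53 over the 5 transport and signalling genes, against 0.01 over all genes tested. Without the mutant K14J26 these medians were 2.93, 0.99 and 0. The 5 transport and signalling genes include Slc24a4. With a filter of 50 counts in 4 embryos, which Slc24a4 and Klk4 did not pass, the medians were 5.29, 0.95 and 0.

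**Figure D1:**
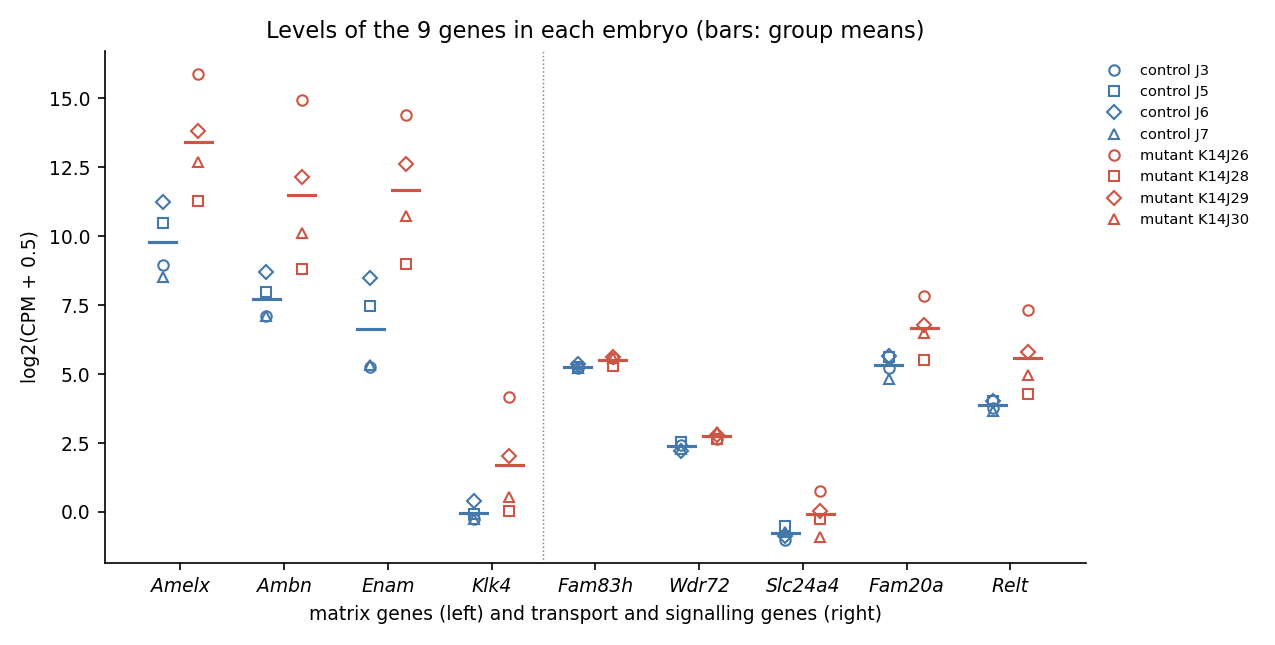
Level of each of the 9 genes in each embryo, as log2(CPM + 0.5), with controls in blue, mutants in red, 1 symbol per embryo and bars at the group means. The mutants K14J26 and K14J29 are the highest for Amelx, Ambn, Enam, Klk4, Fam20a and Relt, while Fam83h and Wdr72 stay within narrow ranges.

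Amelx encodes amelogenin, the most abundant protein of the forming enamel matrix, and lies on chromosome X of GRCm38 from 169176114 to 169187200 on the minus strand. It was measured at 492 CPM in J3, 1420 in J5, 2408 in J6 and 364 in J7, and at 60618 CPM in K14J26, 2466 in K14J28, 14522 in K14J29 and 6672 in K14J30. K14J26 stood far above the rest, and the groups did not overlap, although K14J28 exceeded the control J6 only narrowly. The highest embryo was 166 times the lowest. The log2 fold change was 4.17 (SE 1.04, edgeR adjusted p = 0.0299), and it was 2.75 with K14J26 left out. In bulk RNA from whole molars, more cells that express a gene and more RNA per cell cannot be told apart, and this holds for each of the genes that follow.

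Ambn encodes ameloblastin, a matrix protein that also holds ameloblasts to the matrix, and lies on chromosome 5 from 88455991 to 88468531. Its level was 136 CPM in J3, 255 in J5, 418 in J6 and 137 in J7, against 31562 CPM in K14J26, 450 in K14J28, 4566 in K14J29 and 1120 in K14J30. The order of the mutants was that of Amelx, and K14J28 was again just above J6. A log2 fold change of 5.32 was obtained (SE 1.29, edgeR adjusted p = 0.0279), or of 3.11 without K14J26.

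Enam encodes enamelin, a large matrix glycoprotein, and starts 19443 bases past the end of Ambn, on the same strand of chromosome 5 from 88487975 to 88506049. It was at 37.4 CPM in J3, 179 in J5, 360 in J6 and 39.6 in J7, and at 21427 CPM in K14J26, 505 in K14J28, 6377 in K14J29 and 1699 in K14J30. The controls J5 and J6 were well above J3 and J7, the mutants followed the order seen for Amelx and Ambn, and the groups did not overlap. Among the 9 genes Enam had the widest range with counts in every embryo, 572 times from lowest to highest. Its log2 fold change was 5.61 (SE 1.29, edgeR adjusted p = 0.0244) with all embryos and 4.22 without K14J26.

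Klk4 encodes kallikrein 4, the protease of the maturation stage, and lies on chromosome 7 from 43881160 to 43885804. Its counts were 6 in J3, 11 in J5, 16 in J6 and 10 in J7, and 363 in K14J26, 16 in K14J28, 103 in K14J29 and 25 in K14J30. In CPM this was 0.332 to 0.83 in the controls, against 17.5 in K14J26, 0.532 in K14J28, 3.57 in K14J29 and 0.97 in K14J30. Only K14J26 and K14J29 stood clearly apart, and K14J28 lay among the controls. The log2 fold change of 3.52 (SE 1.08), or 1.81 without K14J26, did not pass the test (edgeR adjusted p = 0.0533). It passed by DESeq2 (adjusted p = 0.00801), and the edgeR adjusted p with 1 embryo left out ran from 0.0169 to 0.139.

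Since the 5 genes called higher include the 3 structural matrix genes, the 250 bases upstream of their RefSeq starts are shown, with those of Fam20a and Relt beside them (RefSeq, GRCm38.p6). Of the 9 genes, 7 had an entry in the promoter table, and Fam83h and Wdr72 did not. Each sequence runs 5′ to 3′ on the strand of its gene, and capitals mark matches, on either strand, to TATAAA (the TATA box), TGTGGT (a core bound by Runx factors), TGGGAA (a core bound by RBPJ, the DNA-binding partner of Notch), TAATT (a homeodomain core) or CCAAT (the CCAAT box, which reads ATTGG on the other strand).
Amelx, chrX:169187210-169187459, minus strand: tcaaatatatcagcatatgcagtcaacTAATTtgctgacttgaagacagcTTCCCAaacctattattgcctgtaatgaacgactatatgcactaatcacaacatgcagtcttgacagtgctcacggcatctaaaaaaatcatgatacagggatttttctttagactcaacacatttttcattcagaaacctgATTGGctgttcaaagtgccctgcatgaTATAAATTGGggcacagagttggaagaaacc
Ambn, chr5:88455741-88455990, plus strand: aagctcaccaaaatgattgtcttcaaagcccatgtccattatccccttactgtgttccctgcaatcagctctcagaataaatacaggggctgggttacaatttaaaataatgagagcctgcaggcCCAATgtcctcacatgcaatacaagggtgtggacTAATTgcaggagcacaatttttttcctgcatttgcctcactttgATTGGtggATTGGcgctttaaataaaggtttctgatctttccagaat
Enam, chr5:88487725-88487974, plus strand: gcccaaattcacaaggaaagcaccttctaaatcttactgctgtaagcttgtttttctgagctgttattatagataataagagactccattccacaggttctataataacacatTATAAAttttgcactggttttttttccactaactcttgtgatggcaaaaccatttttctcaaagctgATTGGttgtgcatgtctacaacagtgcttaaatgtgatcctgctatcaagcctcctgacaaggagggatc
Fam20a, chr11:109722239-109722488, minus strand: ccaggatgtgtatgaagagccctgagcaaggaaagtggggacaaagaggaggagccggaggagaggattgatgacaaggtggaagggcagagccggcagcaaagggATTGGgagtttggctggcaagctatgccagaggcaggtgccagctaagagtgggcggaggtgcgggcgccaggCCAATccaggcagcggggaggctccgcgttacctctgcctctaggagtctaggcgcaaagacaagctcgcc
Relt, chr7:100863414-100863663, minus strand: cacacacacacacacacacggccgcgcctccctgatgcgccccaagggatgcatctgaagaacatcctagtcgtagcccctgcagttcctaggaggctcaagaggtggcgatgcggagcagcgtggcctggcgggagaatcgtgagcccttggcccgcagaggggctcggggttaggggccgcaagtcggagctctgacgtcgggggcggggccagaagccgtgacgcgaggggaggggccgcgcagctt
Positions are counted upstream from the start. Amelx held TATAAA from 31 to 26, and its last base is shared with a reversed CCAAT from 26 to 22. It also held a reversed CCAAT from 58 to 54, TAATT from 223 to 219 and TGGGAA on the opposite strand from 200 to 195. Ambn held CCAAT from 125 to 121, reversed CCAAT from 47 to 43 and from 39 to 35, and TAATT from 91 to 87. Enam held TATAAA from 137 to 132 and a reversed CCAAT from 70 to 66, Fam20a held CCAAT from 71 to 67 and, reversed, from 144 to 140, and Relt held none of the 5 motifs. In the same window of 32851 promoters, TATAAA was found in 12.4%, TGTGGT in 14%, TGGGAA in 21.6%, TAATT in 25% and CCAAT in 33.8%. The windows also differed in base composition, with 38.4% G and C in Amelx, 42% in Ambn and 37.6% in Enam, against 61.2% in Fam20a, 67.6% in Relt, 59.6% in Klk4 and 62.8% in Slc24a4. These matches describe the letters only, and no binding was measured.

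Fam20a encodes a pseudokinase that partners Fam20c, the kinase of secreted proteins in the Golgi, and lies on chromosome 11 from 109669749 to 109722279. It was measured at 36.5 CPM in J3, 49.1 in J5, 50.4 in J6 and 28 in J7, and at 229 CPM in K14J26, 45.7 in K14J28, 110 in K14J29 and 89.3 in K14J30. The mutants K14J26, K14J29 and K14J30 lay above all controls, but K14J28 lay below J5 and J6, so the groups overlapped. Fam20a rose by 1.53 on the log2 scale (SE 0.43, edgeR adjusted p = 0.041) and by 0.99 without K14J26.

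Relt encodes a membrane receptor of the tumour necrosis factor receptor superfamily and lies on chromosome 7 from 100845847 to 100863446. Its level was 13.2 CPM in J3, 15.8 in J5, 15.8 in J6 and 12.3 in J7, and 160 CPM in K14J26, 18.8 in K14J28, 54.8 in K14J29 and 30.8 in K14J30. The controls varied by 1.29 times and the mutants by 8.48 times, with the mutants in the order of the matrix genes and all above the controls. Relt rose by 2.21 on the log2 scale (SE 0.58, edgeR adjusted p = 0.0354), or by 1.29 with K14J26 left out.

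Fam83h encodes a protein that binds casein kinase 1 and keratin filaments, and lies on chromosome 15 from 76001093 to 76014336. It was at 37.2 CPM in J3, 37.6 in J5, 41.1 in J6 and 36.5 in J7, and at 47.3 CPM in K14J26, 38.7 in K14J28, 49 in K14J29 and 47.6 in K14J30. The whole range was 1.34 times, with K14J28 inside the controls and the other mutants slightly above them. The log2 fold change of 0.26 (SE 0.09) did not pass (edgeR adjusted p = 0.0654). It passed by DESeq2 (adjusted p = 0.0469) and without K14J28 (0.33, adjusted p = 0.0108, within a range of 0.0108 to 0.165 when any 1 embryo was left out), and with scaling to the library size only it was 0.16.

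Wdr72 encodes a WD40-repeat protein of vesicle traffic in ameloblasts and lies on chromosome 9 from 74110356 to 74283308. It had 4.93 CPM in J3, 5.36 in J5, 4.15 in J6 and 4.43 in J7, and 5.72 CPM in K14J26, 5.72 in K14J28, 6.48 in K14J29 and 7.02 in K14J30. All mutants lay above all controls by a small margin, and K14J26, the highest embryo for the matrix genes, was not the highest here. The log2 fold change of 0.40 (SE 0.13) did not pass (edgeR adjusted p = 0.0668), although it did by DESeq2 (adjusted p = 0.044).

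Slc24a4 encodes a potassium-dependent sodium-calcium exchanger of maturation-stage ameloblasts and lies on chromosome 12 from 102128733 to 102267091. Its counts were 0 in J3, 5 in J5, 1 in J6 and 3 in J7, and 25 in K14J26, 10 in K14J28, 15 in K14J29 and 1 in K14J30. The group sums were 9 and 51 counts, and K14J30 lay among the controls. The fitted log2 fold change of 2.32 (SE 0.93) did not pass (edgeR adjusted p = 0.111), it was 1.59 without K14J26 and 2.99 without J5, and a gene with this few counts gives only a rough estimate. Slc24a4 entered the test only through the mutants, since 0 controls and 3 mutants reached 10 counts, so its adjusted p of 0.046 without K14J30 (within a range of 0.046 to 0.214 over the 8 such fits) is not counted as a call here.

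Tested gene by gene with a two-sided exact permutation test on log2(CPM + 0.5), Amelx, Ambn, Enam, Wdr72 and Relt gave p = 0.0286, the smallest value that the 70 arrangements of 4 against 4 can give. The exact permutation p was 0.0571 for Klk4 and for Fam83h, 0.0857 for Fam20a and 0.114 for Slc24a4. Calls by edgeR depended on single embryos. Without the control J3, J5 or J7, or without the mutant K14J29, 0 of the 9 genes passed by edgeR. Calls fell among all genes as well, with 373, 451, 300 and 250 higher in these fits, against 1631 with all 8 embryos. In these fits 8, 9, 8 and 8 of the 9 enamel genes had an unadjusted p under 0.05, and the 9 without J5 include Slc24a4. The number of all genes with such a p in these fits is not given here. With all 8 embryos, all 9 enamel genes, Slc24a4 included, had such a p, against 5971 of 17129 genes in either direction. DESeq2 with all 8 embryos called 8 of the 9 higher, all but Slc24a4, against 2244 higher and 1718 lower among all genes. Without J6, Amelx and Enam passed, and without K14J30, Slc24a4 aside, Fam20a was lost (adjusted p = 0.0536, within a range of 0.00812 to 0.113) and Klk4 gained (0.0442). Higher calls among all genes were 854 without J6 and 1337 without K14J30. Without K14J28, 7 passed, Klk4 and Fam83h among them, and higher calls among all genes rose to 2479. Without K14J26, the embryo with the highest matrix levels, the same 5 genes passed as with all embryos, beside 1746 higher calls among all genes. With the Xist level as a covariate 6 passed, Klk4 among them (edgeR adjusted p = 0.0332), beside 1449 higher calls among all genes. The log2 fold changes in this fit were 4.98 for Amelx, 6.24 for Ambn, 6.37 for Enam, 4.34 for Klk4, 2.03 for Fam20a and 2.81 for Relt. Without both mutants with Xist 7 passed, Klk4 and Fam83h among them, beside 1406 higher calls among all genes. The log2 fold changes of Amelx, Ambn and Enam were then 4.84, 6.11 and 6.23. Xist was at 0.574 CPM or less in all controls, so the covariate varied mainly among the mutants. In both fits the genotype effect thus rested largely on K14J26 and K14J30, and little on K14J28, the mutant with the lowest matrix levels. In all fits with embryos left out or with the covariate, all 9 log2 fold changes were positive. The 9 include Slc24a4, which entered the test only through the mutants.

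**Figure D2:**
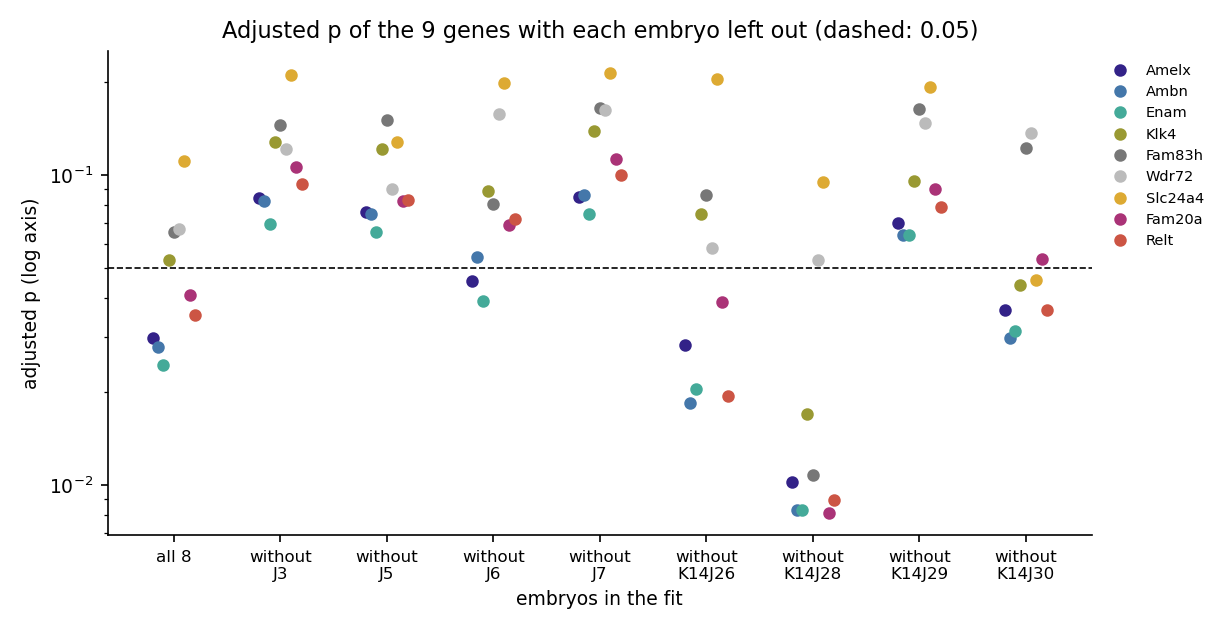
Adjusted p of each gene from edgeR with all 8 embryos and with each embryo left out, on a log axis, with the threshold of 0.05 dashed. All 9 genes lie above the line without J3, J5, J7 or K14J29, and 7 lie below it without K14J28.

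Per kilobase of exon, the scale on which genes can be compared, the control means were 1172 ± 950 CPM (SD, n = 4) for Amelx, 123 ± 69.5 for Ambn and 28.1 ± 27.8 for Enam. Below them came Fam20a at 11.3 ± 2.95, Fam83h at 8.23 ± 0.444 and Relt at 4.35 ± 0.555 CPM per kilobase. The lowest control means were those of Wdr72 at 0.63 ± 0.0717, Klk4 at 0.391 ± 0.188 and Slc24a4 at 0.0199 ± 0.0194 CPM per kilobase. Amelx exceeded Ambn, and Ambn exceeded Enam, in every control, but Enam lay below Fam20a in J3 and J7, Fam20a lay below Fam83h in J7, and Wdr72 lay below Klk4 in J6, so these neighbours were not separated beyond their spread. In the mutants the means per kilobase were 21091 ± 26862 CPM (SD, n = 4) for Amelx, 4911 ± 7748 for Ambn and 1366 ± 1753 for Enam. Those of the other genes were 32.6 ± 21.5 for Fam20a, 20.1 ± 19.6 for Relt, 9.86 ± 1.01 for Fam83h, 4.51 ± 6.4 for Klk4, 0.833 ± 0.0848 for Wdr72 and 0.116 ± 0.109 for Slc24a4. Relt thus stood above Fam83h in the mutant mean, but in single embryos only in K14J26 and K14J29, and the same embryos carried Klk4 above Wdr72.

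The matrix genes also differed among themselves in proportion. Per length, Amelx was 72.2 times Enam in J3, 43.5 times in J5, 36.8 times in J6 and 50.6 times in J7, and 15.5 times in K14J26, 26.8 times in K14J28, 12.5 times in K14J29 and 21.6 times in K14J30. This ratio was lower in all mutants than in all controls, so Enam made up a larger part of the matrix transcripts there. The ratio of Amelx to Ambn per length was 6.95 in J3, 10.7 in J5, 11.1 in J6 and 5.12 in J7, against 3.69 in K14J26, 10.5 in K14J28, 6.11 in K14J29 and 11.4 in K14J30. Here the groups overlapped, with K14J26 below and K14J30 above all controls. Fam20a and Fam20c, whose products work as a pair, had a ratio per length of 1.51 to 1.95 in the controls and 1.7 to 2.14 in the mutants, while Fam20a itself varied by 8.18 times. These ratios were chosen after the levels were seen and were not tested.

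**Figure D3:**
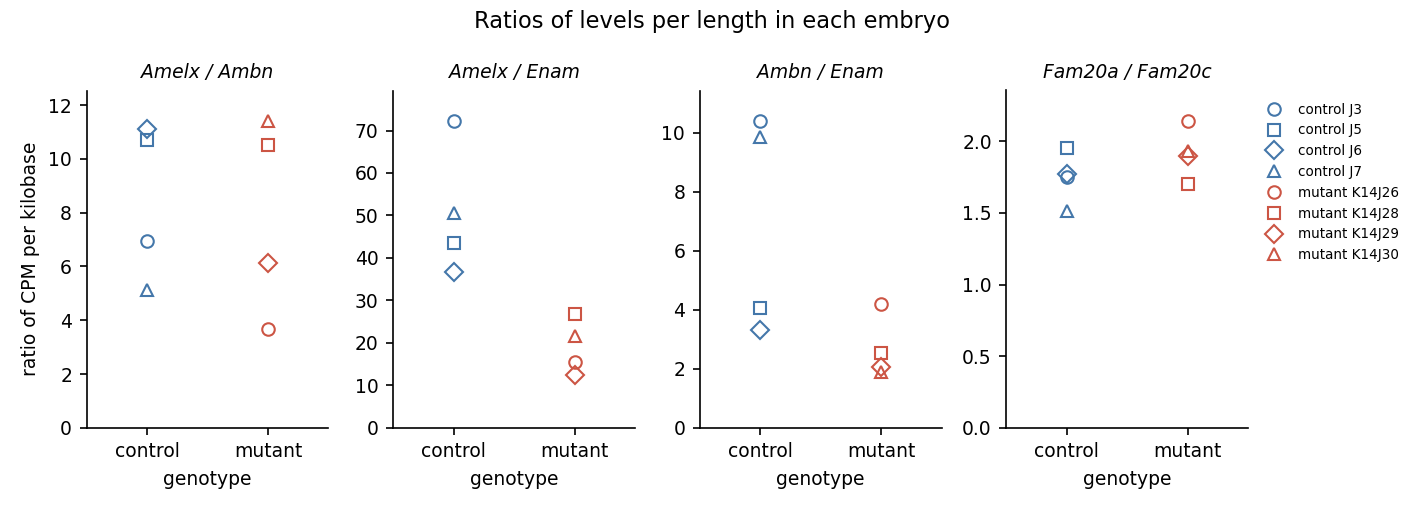
Ratio of levels per kilobase of exon for 4 pairs of genes, with 1 symbol per embryo, controls in blue and mutants in red, on axes that start at 0. The ratio of Amelx to Enam is at least 36.8 in the controls and at most 26.8 in the mutants, and the ratio of Fam20a to Fam20c lies between 1.51 and 2.14 in all embryos.

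To compare the matrix genes with the transport and signalling genes within each embryo, log2(CPM + 0.5) was averaged over each set. The difference of matrix minus transport was 2.12 in J3, 3.08 in J5, 3.92 in J6 and 2.11 in J7, and 7.52 in K14J26, 3.78 in K14J28, 5.95 in K14J29 and 4.72 in K14J30. The groups overlapped, since J6 was above K14J28, and the mean was 2.81 ± 0.87 in the controls and 5.49 ± 1.62 in the mutants (SD, n = 4 each), a difference of 2.68 on the log2 scale. Since the genes were chosen with results known, no test is given. Of this, the matrix mean was higher by 3.55 and the transport mean by 0.87 in the mutants. The transport mean includes Slc24a4, which entered the test only through the mutants.

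The transport and signalling genes differed among themselves as well. Measured from the control mean on the log2 scale, the mean of Fam20a and Relt was at 2.98 in K14J26, 0.30 in K14J28, 1.68 in K14J29 and 1.12 in K14J30, and between -0.35 and 0.24 in the controls. The mean of Fam83h and Wdr72 was at 0.28 in K14J26, 0.14 in K14J28, 0.39 in K14J29 and 0.43 in K14J30, and between -0.07 and 0.08 in the controls. Fam20a and Relt followed the order of the matrix genes among the mutants, with smaller steps, whereas the mean of Fam83h and Wdr72 was higher in K14J30 than in K14J26. These pairs were formed after their values were seen.

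**Figure D4:**
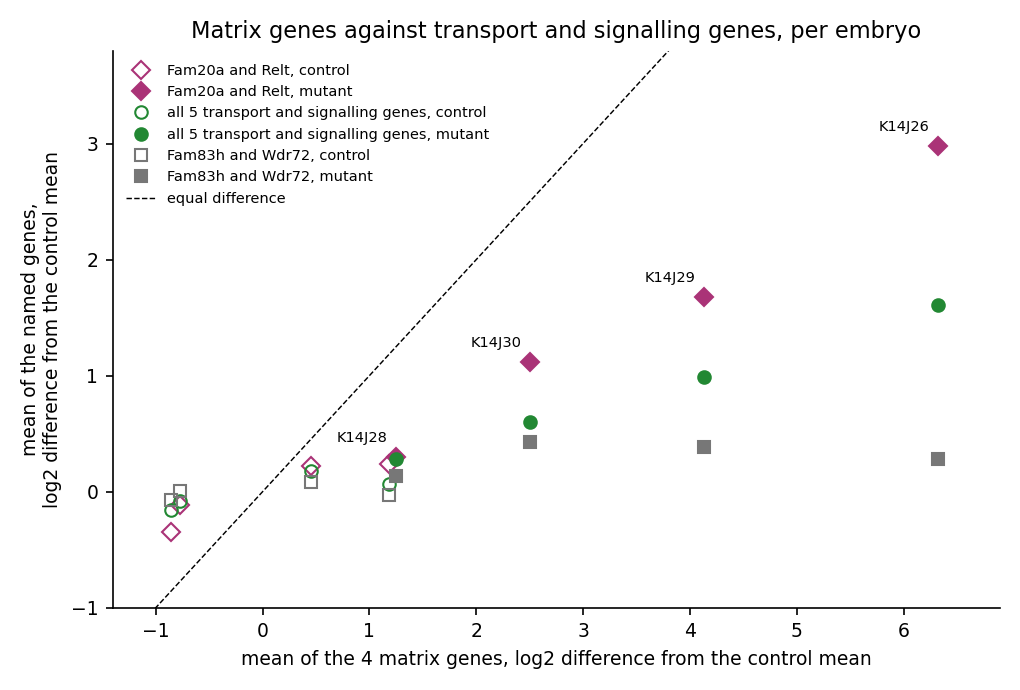
Mean of all 5 transport and signalling genes, of Fam20a with Relt, and of Fam83h with Wdr72 (vertical) against the mean of the 4 matrix genes (horizontal), each as the log2 difference from the control mean, with open symbols for controls, filled symbols for mutants and the line of equal differences dashed. K14J26 lies at 6.32 for the matrix genes, at 2.98 for Fam20a with Relt and at 0.28 for Fam83h with Wdr72.

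Of 24 other genes linked to amelogenesis imperfecta or to syndromes with enamel defects, 21 were tested, 9 were higher and 0 were lower in the mutants by edgeR, with a median log2 fold change of 0.75. In the lower direction 0 had an unadjusted p under 0.05, and DESeq2 also called 0. Mmp20, the protease of the secretory stage, rose by 3.19 on the log2 scale (SE 0.76, edgeR adjusted p = 0.0263), and Acp4, an acid phosphatase of secretory ameloblasts, by 4.18 (SE 1.04, adjusted p = 0.0299). Both followed the matrix genes in the order of the mutants. Slc13a5, a citrate transporter, rose by 2.91, Lama3, a laminin chain of the basement membrane, by 2.85, and Fam20c by 1.35 on the log2 scale (adjusted p of 0.031, 0.0347 and 0.0357 from edgeR), and Itgb6, an integrin chain, rose by 1.37 (adjusted p = 0.0412). Without K14J26 the log2 fold changes were 2.42 for Mmp20, 2.53 for Acp4, 1.63 for Slc13a5, 1.60 for Lama3, 0.90 for Fam20c and 0.89 for Itgb6, and with each embryo left out in turn Mmp20 passed in 4 of 8 fits and the other 5 genes in 3. Odam showed another pattern. Odam, which encodes a protein of the ameloblast surface, was at 154 to 216 CPM in the controls and at 374 in K14J26, 457 in K14J28, 414 in K14J29 and 333 in K14J30, and its log2 fold change was 1.18 (SE 0.13, edgeR adjusted p = 0.00485). Here K14J28 was the highest of the mutants, and the gene passed with each of the 8 embryos left out in turn. Amtn, Cldn16 and Cldn19 had too few counts to be tested. Amtn, a matrix gene of the maturation stage, had 86 counts in K14J26 and at most 6 in any other embryo.

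**Figure D5:**
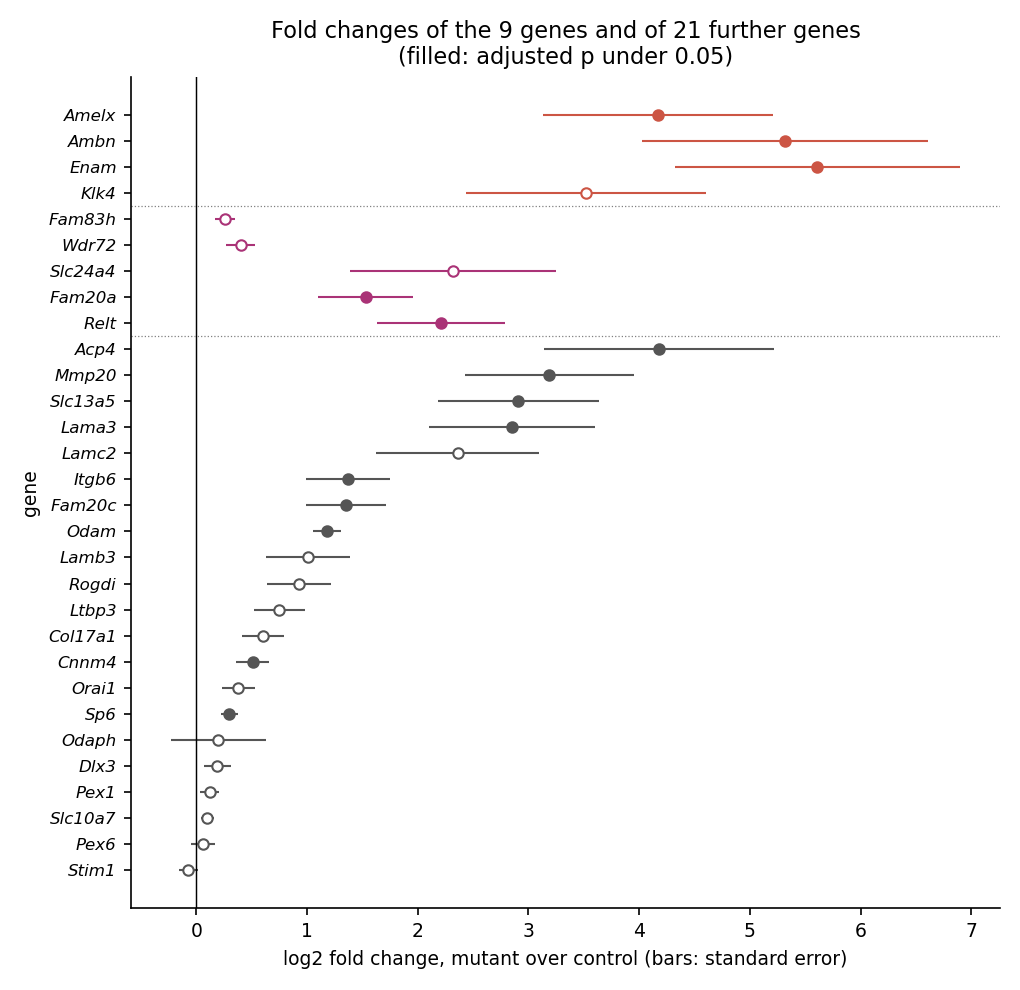
Log2 fold change of mutant over control with its standard error from edgeR for the 4 matrix genes (red), the 5 transport and signalling genes (purple) and 21 other genes linked to enamel defects (grey), filled where the adjusted p was under 0.05. Enam has the highest value at 5.61, and Fam83h and Wdr72 lie at 0.26 and 0.40.

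Paralogues and partners of the enamel genes were taken as a further list. Of 32 such genes, 28 were tested, 10 were higher and 0 were lower in the mutants by edgeR, and the median log2 fold change was 0.31. DESeq2 called 2 of them lower, against 1718 of all genes. All mutants lay below all controls for 3 of them, against 1988 of the 17129 genes tested. Slc24a3, which encodes an exchanger related to Slc24a4, was at 3.21 to 8.35 CPM in the controls and at 98.5 in K14J26, 9.05 in K14J28, 34.1 in K14J29 and 17.9 in K14J30 (log2 fold change 2.81, SE 0.69, edgeR adjusted p = 0.0295). The order of the mutants was that of the matrix genes. Its relative Slc24a1 had too few counts to be tested. In the FAM20 family, Fam20b, a xylose kinase, rose by 0.25 (edgeR adjusted p = 0.0391), less than Fam20a and Fam20c. The FAM83 proteins Fam83g and Fam83d rose by 0.97 and 0.77, Krt14, a keratin of the dental epithelium whose promoter drives Cre here, by 0.96, Klk10, a kallikrein, by 1.57, and Dmxl2, a partner of the vesicular proton pump, by 0.53 on the log2 scale. Fam83a, Klk5 and Klk6 had too few counts to be tested. Among 10 regulators of enamel genes, Sp6 (0.30), Satb1 (0.68) and Foxo1 (0.52) rose, and Tbx1 (-0.76), Cebpa (-0.65) and Runx2 (-0.29) fell, with adjusted p from 0.00517 to 0.0436 (edgeR) and a median over the list of 0.03.

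The 10 genes outside the 9 whose profile over the 8 embryos was closest to the mean profile of Amelx, Ambn and Enam were found by the root mean square difference of centred log2(CPM + 0.5), among genes of at least 1 CPM on average. From the closest, at a difference of 0.51, to the last, at 1.17, they were Clu, Acp4, Akain1, Mmp20, Pla2g2f, Gal3st4, Fxyd4, Ildr2, Slc24a3 and Chac1. Clu, which encodes the secreted chaperone clusterin, was at 95.8 to 267 CPM in the controls and at 13964 in K14J26, 253 in K14J28, 2893 in K14J29 and 700 in K14J30, so its groups overlapped at K14J28. By the same measure 21 of 14727 other genes were closer to the matrix profile than Klk4 (1.38), 43 were closer than Relt (1.51) and 82 were closer than Fam20a (1.74). For Fam83h and Wdr72 the numbers were 2655 and 3045.

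Genes that overlap the 9 on the genome were looked at because the strand used in counting is not stated. Amelx lies inside Arhgap6, which runs on the other strand, shares 0 exon bases with it and was at 4.42 to 6.65 CPM in all embryos. K230010J24Rik overlaps Fam83h on the other strand without a shared exon base and was at 5.51 to 8.17 CPM. Gm16339 and 1 of 2 entries named Gm25203, opposite Slc24a4, had 0 counts in every embryo, which allows at most 0.166 CPM in any of them, and the other entry was not among the genes counted.

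Markers of the cell types in the molar moved with the enamel genes in part. Of 9 dental epithelium markers, 2 were higher in the mutants, and their summed level was 6344 CPM in J3, 6034 in J5, 6449 in J6 and 5669 in J7, and 9270 in K14J26, 6679 in K14J28, 8123 in K14J29 and 7461 in K14J30. Its most abundant gene, Krt5, differed by 0.31 on the log2 scale (edgeR adjusted p = 0.065). DESeq2 called 5 of the 9 higher and 1 lower, against 2244 and 1718 of all genes. Of the 9 log2 fold changes 2 were negative. All mutants lay below all controls for 1 of the 9, against 1988 of the 17129 genes tested. The sum followed the order of the matrix genes among the mutants, but over a range far narrower than theirs. Of 8 odontoblast markers, 7 were higher, led in abundance by Col1a1, and their sum was 6462 CPM in J3, 10642 in J5, 12074 in J6 and 7555 in J7, and 35869 in K14J26, 11700 in K14J28, 25296 in K14J29 and 19700 in K14J30. Dspp, the dentin matrix gene, ordered all 8 embryos as Ambn and Enam did. Of 10 dental mesenchyme markers, 8 were lower, and the median log2 fold change over the list was -0.43. The most abundant marker, Vim, was not among these 8. Its log2 fold change was 0.03, with means of 845 CPM in the controls and 863 CPM in the mutants. The sums over all 10 markers, Vim included, were 1444, 1481, 1569 and 1482 CPM in J3, J5, J6 and J7. In K14J26, K14J28, K14J29 and K14J30 these sums were 1375, 1215, 1344 and 1389 CPM. Runx2 is on a marker list and on the list of regulators, and Krt14 and Krt5 are on a marker list and on that of partners. Sp6, and Dlx3, named only for this, are on the list of other genes linked to amelogenesis imperfecta and on that of regulators. Fam20c is on the former list and on that of partners. Sp6 and Fam20c are thus counted as higher in each of their lists. The part of cell composition in the enamel gene differences was not tested.

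Markers of other tissues stood at different levels among the embryos, and the counts do not tell whether these tissues lay in or around the molar. Skeletal muscle markers summed to 402 CPM in J6 and 198 CPM in J7, led by Acta1, and to between 5.29 and 19 CPM in the other embryos, with 1 of 8 lower in the mutants by edgeR and 6 by DESeq2. All 8 log2 fold changes were negative, and 7 had an unadjusted p under 0.05. Without J6 and J7, 0 of the 9 enamel genes passed by edgeR with 2 controls left, 6 had an unadjusted p under 0.05, and the log2 fold changes of Amelx, Ambn and Enam were 4.46, 5.58 and 6.11. K14J28, the mutant with the lowest matrix levels, had the highest oral epithelium sum, 913 CPM led by Krt13 against 37.6 to 208 CPM elsewhere, and the highest osteoblast and osteoclast sum, 2273 CPM led by Ctsk against 498 to 882 CPM. Of the 6 oral epithelium markers 0 were called by edgeR, 0 had an unadjusted p under 0.05 and DESeq2 called 0, and of the 8 osteoblast and osteoclast markers 2 were higher. One of these, Sost, was at 0 in J3 and entered the test only through the mutants, since 0 controls reached 10 counts. Blood (Hbb-bs the most abundant), endothelium (Cdh5) and macrophage (Csf1r) markers gave 0 calls by edgeR in lists of 6, 5 and 5, with 0, 2 and 0 genes at an unadjusted p under 0.05 and 0, 2 and 0 calls by DESeq2. K14J28 was also the highest for macrophage markers, with 158 CPM against 54.9 to 86.5 CPM, and for blood markers, with 1659 CPM against 679 to 1297 CPM. Of 5 nerve and Schwann cell markers 1 was higher, Tubb3, which was also the most abundant. The part of these tissues in the results was not tested.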

How the data were processed

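The authors aligned the reads with STAR to GRCm38 (GRCm38.p3 in the submitters' processing notes) and deposited, for each embryo, raw counts per Ensembl gene. The paper names GenomicRanges for counting and the notes name featureCounts. The libraries came from a kit that does not mark strand, and neither the annotation release nor the treatment of reads with several matches is given in the sources used here. Symbols, positions and exon lengths were taken from GENCODE release M21, which held 42462 of the 43629 identifiers.

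The filter kept the 17129 genes that reached 10 counts in 2 or more embryos of the same group, library sizes were scaled by TMM, and the groups were compared with edgeR 4.0.16 (quasi-likelihood test, no covariates, R 4.3.3), with Benjamini-Hochberg adjustment over all genes kept. The code was tested on simulated counts. CPM are counts over the scaled library sizes. The totals ran from 17327224 to 29792467 counts. Pairs of embryos of a group differed beyond sampling noise, and mutants more than controls. The chi-square per degree of freedom was 7.17 to 16.1 for pairs of controls and 31.4 to 299 for pairs of mutants. Promoters came from RefSeq.

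The 9 genes and all lists were chosen with earlier results of these data known. A few genes planned for the lists are not reported here and were left out of the list counts. Named from the context lists were the genes with an adjusted p under 0.05 (at most 8 per list, by p) and those not tested, from each marker list the most abundant gene and genes at 0, and the 10 closest profiles. The alternatives were other scalings, DESeq2 1.42.0, robust and likelihood ratio tests in edgeR, the criteria of the study, other count filters, pseudocounts, Xist as a covariate, and embryos left out. Sex and litter are not given in the labels and were not used to form groups.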

Additional observations from a re-analysis of the deposited data

Results flagged for a closer look

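Among the 9 genes and the difference of matrix minus transport, 20 groups of 4 embryos were checked for an embryo far from the other 3, and chance alone flags about 1 in 20 such groups. Ambn in the mutant K14J26, at 31562 CPM, lay far above the other mutants, which were between 450 and 4566 CPM. Fam83h in the mutant K14J28, at 38.7 CPM, lay below the other mutants, which were between 47.3 and 49 CPM, and inside the range of the controls.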

How the results depend on the processing

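With all embryos, the calls of Amelx, Ambn, Enam, Fam20a and Relt held under the 3 other scalings, library sizes without the matrix genes, DESeq2, the likelihood ratio test, both other count filters, the Xist covariate and, chosen after seeing the data, without K14J28 and K14J29. Klk4 and Slc24a4 could not be tested at 50 counts in 4 embryos. All 9 fold changes, or 7 under that filter, were positive in every fit. DESeq2 called 8 of the 9 higher (2244 of all genes) and the robust test called 1, Enam (1564 of all genes). Without J6 and J7, 0 were called, as were 7 genes among all tested instead of 2764. With 1 embryo left out, the 9 gave 0 to 7 higher calls and all genes 420 to 4322 calls in both directions. The other enamel defect genes, 9 of them higher, gave 3 with the robust test, 14 with the likelihood ratio test or the Xist covariate, 0 without J6 and J7 (11 at an unadjusted p under 0.05), 15 without K14J28 and K14J29, and 1 to 15 with 1 embryo left out. Fewer embryos enter the last fits, and the cause of the other differences was not tested. By exact permutation 5 genes reached the smallest p, and 4 did with upper quartile or library size scaling. The matrix minus transport difference of 2.68 ran from 2.01 to 3.31 over all alternatives. No paired analysis was possible because the groups share no replicate numbers.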
